A study of Mus musculus with 6 samples.

Results

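The collagen gene family was examined in mouse liver that had received PI3Kδ by gene transfer. Collagen genes were taken as all probe sets with 1 gene symbol of the form Col, number, a, number, and 42 probe sets of the 22206 on the array met this, each for a different gene. They make up 42 of the 44 collagen genes in the RefSeq table used here, and Col7a1 and Col12a1 were not analysed here. By class, 11 code for fibrillar chains, 8 for chains of basement membranes and 23 for other collagens. The AAV-PIK3CD group (arrays 51, 52 and 53) had received a serotype 8 adeno-associated virus (AAV) with mouse Pik3cd, the gene of p110δ, a catalytic subunit of PI3K, behind the TBG promoter, which acts in hepatocytes. The AAV-control group (arrays 48, 49 and 50) had received an AAV vector without Pik3cd, which the study describes as carrying EGFP behind the same promoter but, in its array methods and labels, as empty. Per the methods all were male C57BL/6 mice, injected at 8 weeks and killed at 12 weeks of age. The methods describe 3 individual samples per condition. Where these were not separate mice, no p-value here measures the spread between mice.

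Collagens are trimers of alpha chains that wind into a triple helix, and the chain genes are numbered by collagen type. Fibrillar collagens pack into the banded fibres of the stroma, type IV collagen forms the sheet of basement membranes, and the other types bind to fibrils, build microfilaments or short networks, or sit in the cell membrane. In liver the fibrillar chains come mainly from stellate cells and portal fibroblasts and build up as scar in fibrosis, with TGFβ as a main inducer, while the space between hepatocytes and sinusoids normally holds a loose matrix with type IV collagen and no continuous basement membrane. The vector's promoter acts in hepatocytes, so most chains are made by cells that it does not drive. In bulk RNA, fewer cells of a type and less RNA per cell cannot be told apart.

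Each array is a Clariom S mouse array, and its values are log2 levels after RMA, with a median between 4.81 and 4.87. Levels near or below the median of an array are close to background for many genes, and 24 of the 42 collagens had an AAV-control mean above it. Whether a chain above the median is expressed was not tested. AAV-control means of Col8a2, Col11a2 and Col13a1 were 6.76, 6.71 and 6.78. Those of Col1a1, Col1a2 and Col3a1, main chains of liver stroma, were lower, at 5.65, 5.35 and 5.61. A flat reading may therefore be probe background. Pik3cd differed by 0.43 (SE 0.14; adjusted p = 0.673 by rank products), with all AAV-PIK3CD arrays above all AAV-control arrays, and whether its probes lie in the sequence of the vector is not known here. The labels name the tissue as tumour and the RNA as from cell culture. All 6 hepatocyte markers lay above the array median in AAV-control, and albumin averaged 13.27 ± 0.03 in AAV-PIK3CD and 13.24 ± 0.04 in AAV-control (SD, n = 3 each). Array 51, of the AAV-PIK3CD group, stood apart. The summed level of 7 pancreatic acinar markers was 12.66 in array 51 on the log2 scale, 7.32 and 7.30 in arrays 52 and 53, and 7.18 to 7.45 in AAV-control. That of 6 skeletal muscle markers was 7.92 in array 51, 6.56 and 6.57 in arrays 52 and 53, and 6.50 to 6.68 in AAV-control. Of these, 1 acinar marker and 0 muscle markers exceeded the array median in AAV-control, and results that rest on array 51 are given with and without it. A rank products p can be small because of 1 array. All 7 acinar markers were highest in array 51, and 7 had an unadjusted p under 0.05 by rank products, against 0 by limma. For the 6 muscle markers, all highest in array 51, these counts were 4 and 1.

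The first question was whether collagen genes differed between AAV-PIK3CD and AAV-control livers. By rank products over all probe sets, with Benjamini-Hochberg adjustment at 0.05, 0 of the 42 collagens were called higher and 0 lower, where 0.0045% and 0.036% of all probe sets were called. Limma and the methods' t-test called 0 of them as well. Before adjustment, a p under 0.05 by rank products was seen for 4 collagens, Col2a1, Col8a1, Col15a1 and Col23a1, and for 5.7% of all probe sets. At the same unadjusted level limma gave 5, these 4 and Col24a1, and 5.08% of all probe sets. The smallest adjusted p in the family was 0.431 by rank products, for Col2a1, and 0.932 by limma.

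Although no chain passed, the family as a whole lay on the high side in AAV-PIK3CD by its group means, though not in each array. The mean was higher in AAV-PIK3CD for 32 of 42 collagens, or 76.2%, against 47.7% of all probe sets. The median difference, AAV-PIK3CD minus AAV-control, was 0.12 over the collagens and -0.007 over all probe sets, both on the log2 scale. It was 0.12 for the 24 collagens above the array median and 0.11 for the 18 others. Within groups, the collagens' median deviation from each gene's mean had an SD between arrays of 0.11. For fibrillar, basement membrane and other collagens this SD was 0.10, 0.10 and 0.11. After centring each array on its median the count of higher means was 26 of 42, or 61.9%, against 39.2% of all probe sets. Single differences ran between -0.30 for Col24a1 and 0.54 for Col2a1.

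This position rested largely on array 51. Relative to each gene's mean over the 6 arrays, the collagens had a median deviation of 0.20 in array 51, 0.03 in array 52 and -0.08 in array 53, against -0.03, -0.03 and -0.13 in AAV-control arrays 48, 49 and 50. In 23 of 42 collagens, or 54.8%, array 51 held the highest value, while it did so in 20.4% of all probe sets. Without it, 25 of 42 collagens, or 59.5%, had a higher mean in AAV-PIK3CD, beside 48.1% of all probe sets, and the median difference was 0.04. Taken with its sign, the difference was lower without array 51 in 31 of 42 chains. These include chains below 0 whose difference grew in size, such as Col4a4, from -0.03 to -0.27. The sign turned in 7 chains, which were Col1a2, Col3a1, Col5a3, Col6a2, Col6a3, Col19a1 and Col26a1. Acinar and muscle transcripts were high in the same array, and their part in the collagen levels was not tested.

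**Figure D1:**
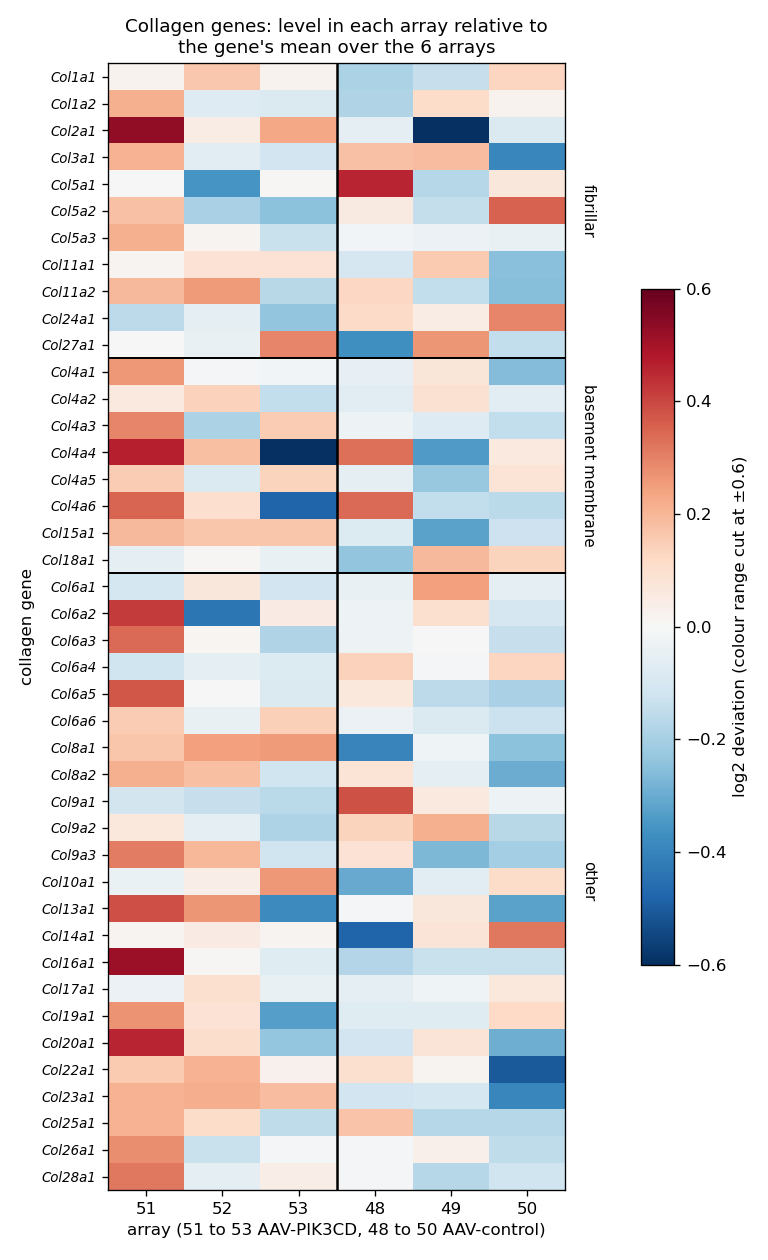
Level of each of the 42 collagens (rows, by class) in each array (columns, AAV-PIK3CD arrays 51 to 53 left of AAV-control arrays 48 to 50), as the log2 deviation from the gene's mean over the 6 arrays. Array 51 has the most red cells, and it held the highest value in 23 of 42 genes.

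The groups did not overlap in 8 collagens. All 3 AAV-PIK3CD arrays lay above all 3 AAV-control arrays for Col2a1, Col8a1, Col15a1, Col16a1 and Col23a1, which is 11.9% of the family, against 4.47% of all probe sets. They lay below for Col6a4, Col9a1 and Col24a1, which is 7.14% of the family, against 4.97% of all probe sets. Without array 51 the shares were 11.9% above and 9.52% below in the family, against 8.25% and 9.82% of all probe sets. Among the 5 that lay above, 2 had an AAV-control mean over the array median, Col16a1 and Col23a1, and among the 3 that lay below, 1 did, Col9a1. These 8 genes come from 6 structural groups and lie on 7 chromosomes. For a single chain of 3 arrays against 3, an exact permutation test cannot give a 2-sided p below 0.1.

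Promoter sequence is given for 4 chains: Col1a2 and Col3a1 as main chains of liver fibrils, and Col8a1 and Col24a1 as chains whose AAV-PIK3CD arrays lay above and below AAV-control. Each is the 250 bases before the gene's start in RefSeq (mouse build GRCm38.p6), written 5′ to 3′ on the strand of the gene. They are chr6:4505368-4505617 on the plus strand for Col1a2, chr1:45311288-45311537 on the plus strand for Col3a1, chr16:57754738-57754987 on the minus strand for Col8a1 and chr3:145292222-145292471 on the plus strand for Col24a1. Capitals mark matches on either strand to 4 motifs: the TATA box TATAAA, the CCAAT box, the GC box GGGCGG that Sp1 binds, and CAGAC, the SMAD box bound by the TGFβ transducers SMAD3 and SMAD4. No base was shared by 2 matches in these windows.
Col1a2: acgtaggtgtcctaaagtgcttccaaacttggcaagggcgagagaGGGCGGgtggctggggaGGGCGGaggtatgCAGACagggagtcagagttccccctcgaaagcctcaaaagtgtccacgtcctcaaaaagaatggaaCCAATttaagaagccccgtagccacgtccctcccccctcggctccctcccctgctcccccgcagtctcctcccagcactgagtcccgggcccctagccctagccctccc
Col3a1: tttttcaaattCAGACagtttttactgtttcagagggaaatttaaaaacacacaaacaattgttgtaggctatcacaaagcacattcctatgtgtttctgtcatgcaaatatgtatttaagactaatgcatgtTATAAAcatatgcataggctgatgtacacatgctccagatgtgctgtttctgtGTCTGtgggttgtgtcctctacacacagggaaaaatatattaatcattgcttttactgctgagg
Col8a1: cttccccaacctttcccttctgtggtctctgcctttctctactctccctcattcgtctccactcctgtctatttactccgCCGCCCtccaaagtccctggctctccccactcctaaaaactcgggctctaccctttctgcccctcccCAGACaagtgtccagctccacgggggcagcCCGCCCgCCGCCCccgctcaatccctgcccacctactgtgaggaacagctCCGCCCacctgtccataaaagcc
Col24a1: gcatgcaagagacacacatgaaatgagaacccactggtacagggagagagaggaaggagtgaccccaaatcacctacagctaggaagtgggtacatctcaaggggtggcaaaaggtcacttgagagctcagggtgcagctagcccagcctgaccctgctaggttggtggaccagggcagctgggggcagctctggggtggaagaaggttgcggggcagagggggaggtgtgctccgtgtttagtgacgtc

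The Col1a2 window held 1 CCAAT box, 2 GC boxes and 1 SMAD box, and that of Col3a1 held 1 TATA box and 2 SMAD boxes. The Col8a1 window held 4 GC boxes and 1 SMAD box, and that of Col24a1 held none of the 4 motifs. RefSeq windows were at hand for 34 of the 42 collagens, 37 windows in all. The GC box was present in 56.8% of them, against 32.7% of the 32851 windows of the same length for all genes. The SMAD box was in 43.2% of collagen windows and 42.2% of all windows, the CCAAT box in 32.4% and 33.8%, and the TATA box in 13.5% and 12.4%. A match is a description of the letters only, and motifs this short occur in many promoters, from 12.4% (TATA box) to 42.2% (SMAD box) of all windows.

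Type I and type III collagen are the main fibres of liver stroma and of scar, and their chains did not separate the groups. Values are given throughout in the order of arrays 51, 52 and 53 for AAV-PIK3CD and 48, 49 and 50 for AAV-control. Col1a1, the alpha 1 chain of type I, read 5.74, 5.88 and 5.74 in AAV-PIK3CD, against 5.53, 5.58 and 5.85 in AAV-control. Array 50 reached the level of the AAV-PIK3CD arrays, and the difference was 0.13 (SE 0.13, 95% interval -0.15 to 0.42, limma). Col1a2, whose chain joins Col1a1 in the same trimer and whose promoter is shown above, read 5.58, 5.29 and 5.28 in AAV-PIK3CD, against 5.19, 5.48 and 5.39 in AAV-control. Array 51 was the highest of the 6 and array 48 the lowest, with the other 4 between them, and the difference was 0.03 (95% interval -0.27 to 0.33). Col3a1, the single chain of type III reticular fibres, read 5.83, 5.56 and 5.51 in AAV-PIK3CD, against 5.80, 5.81 and 5.23 in AAV-control. The groups overlapped fully, with the lowest value in array 50, and the difference was 0.02 (95% interval -0.36 to 0.40). The signs of Col1a2 and Col3a1 turned without array 51 and after median centring, so neither chain has a settled direction.

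Type V collagen lies inside type I fibrils and starts their assembly. Col5a1 read 3.75, 3.40 and 3.76 in AAV-PIK3CD, against 4.21, 3.58 and 3.82 in AAV-control, a difference of -0.23 (95% interval -0.62 to 0.15). Its partner Col5a2 read 4.52, 4.15 and 4.10 in AAV-PIK3CD, against 4.40, 4.20 and 4.70 in AAV-control, a difference of -0.18 (95% interval -0.54 to 0.19). For both genes the highest value was in an AAV-control array, 48 for Col5a1 and 50 for Col5a2, and the groups overlapped. With each array left out in turn their differences stayed below 0, between -0.38 and -0.06 for Col5a1 and between -0.31 and -0.04 for Col5a2. Both lay below the array median.

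The 2 fibrillar chains that separated the groups are not main liver chains. Col2a1, the chain of type II collagen of cartilage, read 5.06, 4.57 and 4.76 in AAV-PIK3CD, against 4.47, 3.86 and 4.44 in AAV-control. Array 51 was highest and array 49 lowest, and the gap between the groups, 4.57 in array 52 against 4.47 in array 48, was small. The difference of 0.54 (SE 0.19, 95% interval 0.13 to 0.95) equals a 1.45-fold higher level, was 0.41 without array 51 and 0.34 without array 49, and did not pass over all probe sets (adjusted p = 0.431, rank products). Col24a1, a minor fibrillar chain known from bone and cornea, read 2.77, 2.87 and 2.69 in AAV-PIK3CD, against 3.04, 2.97 and 3.22 in AAV-control. All 6 values were far below the array median, and the difference was -0.30 (SE 0.12, 95% interval -0.57 to -0.03; adjusted p = 0.936, rank products). Its promoter window above held none of the 4 motifs. Of the other chains below AAV-control, Col6a4 had a CCAAT box and a GC box and Col9a1 a CCAAT box and a SMAD box. A link between motifs and direction was not tested. The other 4 fibrillar chains, Col5a3, Col11a1, Col11a2 and Col27a1, had differences between 0.06 and 0.19 with overlapping groups, and between -0.03 and 0.21 without array 51. Over the 11 fibrillar chains 8 had a higher mean, with a median difference of 0.06, which was -0.03 without array 51.

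Type IV chains form the network of basement membranes, and their genes lie in head-to-head pairs. The pair that most tissues use, Col4a1 and Col4a2 on chromosome 8, overlapped between groups. Col4a1 read 6.10, 5.83 and 5.82 in AAV-PIK3CD, against 5.79, 5.91 and 5.58 in AAV-control, a difference of 0.16 (SE 0.14, 95% interval -0.15 to 0.46) that was 0.07 without array 51 and 0.07 without array 50. Col4a2 read 5.21, 5.29 and 5.0 in AAV-PIK3CD, against 5.08, 5.24 and 5.08 in AAV-control, a difference of 0.03 (95% interval -0.25 to 0.31). Array 51 was the highest of 6 for Col4a1 and array 52 for Col4a2, and array 49 of AAV-control came next in Col4a1. Col4a4, a chain of the kidney filter, read 5.46, 5.17 and 4.30 in AAV-PIK3CD, against 5.32, 4.65 and 5.05 in AAV-control. Both the highest and the lowest value were in AAV-PIK3CD, in arrays 51 and 53, and the difference of -0.03 (95% interval -0.63 to 0.57) was -0.27 without array 51 and 0.31 without array 53. Col4a3, Col4a5 and Col4a6 had differences of 0.17, 0.13 and -0.02 with overlapping groups, which were 0.07, 0.09 and -0.20 without array 51. In 5 of the 6 type IV chains array 51 held the highest value, and the median difference was 0.08, or 0.04 without that array.

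The multiplexins Col15a1 and Col18a1 are basement membrane collagens with sugar side chains. Col15a1, found at vessel and bile duct walls, read 5.13, 5.10 and 5.10 in AAV-PIK3CD, against 4.85, 4.61 and 4.81 in AAV-control. The AAV-PIK3CD arrays were nearly alike and all above AAV-control, array 51 no more than the others. The difference was 0.35 (SE 0.12, 95% interval 0.09 to 0.62; adjusted p = 0.861, rank products), a 1.28-fold higher level, and 0.34 without array 51. Col18a1, which hepatocytes make and whose end piece is endostatin, read 9.75, 9.81 and 9.76 in AAV-PIK3CD, against 9.57, 10.0 and 9.94 in AAV-control. The AAV-PIK3CD values lay inside the AAV-control range, and the difference was -0.06 (95% interval -0.37 to 0.24). Over the 8 basement membrane chains 5 had a higher mean, with a median difference of 0.08, and 0.04 without array 51.

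**Figure D2:**
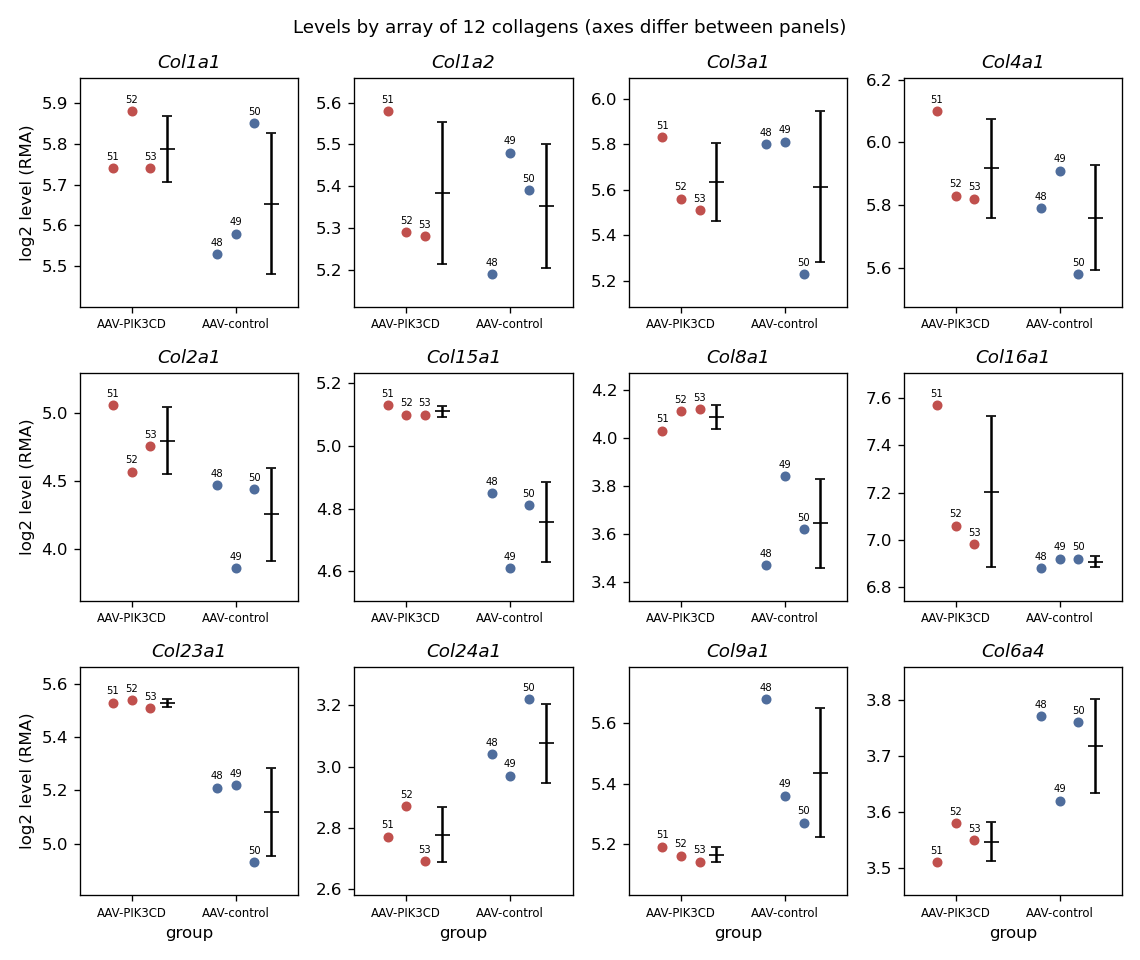
Log2 level of 12 collagens in each array, with AAV-PIK3CD on the left and AAV-control on the right of each panel, points labelled by array, and the mean with its SD (n = 3) beside them. Col1a1, Col1a2, Col3a1 and Col4a1 overlap between groups, while the other 8 do not, with Col16a1 highest in array 51 at 7.57.

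Type VI collagen forms beaded microfilaments around cells from the chains of Col6a1, Col6a2 and Col6a3. Col6a1 read 5.97, 6.14 and 5.96 in AAV-PIK3CD, against 6.03, 6.32 and 6.02 in AAV-control, a difference of -0.10 (95% interval -0.39 to 0.19). Col6a2 read 4.83, 3.98 and 4.46 in AAV-PIK3CD, against 4.38, 4.51 and 4.31 in AAV-control, a difference of 0.02 (95% interval -0.40 to 0.45) that turned sign under each normalization tried and without array 51. Col6a3 read 5.99, 5.66 and 5.47 in AAV-PIK3CD, against 5.62, 5.65 and 5.51 in AAV-control, a difference of 0.11 (95% interval -0.21 to 0.44). Array 51 was highest for Col6a2 and Col6a3 but not for Col6a1, and all 3 chains overlapped between groups. Without array 51 the 3 differences were -0.07, -0.18 and -0.03. Col6a4, one of the later found chains of the type, read 3.51, 3.58 and 3.55 in AAV-PIK3CD, against 3.77, 3.62 and 3.76 in AAV-control. The AAV-PIK3CD arrays were all lower, by a margin of 3.58 in array 52 against 3.62 in array 49, and the difference was -0.17 (95% interval -0.42 to 0.08) at a level below the array median. Col6a5 and Col6a6 had differences of 0.19 and 0.17 with overlapping groups, and of 0.055 and 0.13 without array 51.

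Collagens of the FACIT group sit on the surface of fibrils. Col14a1, the FACIT of liver and skin stroma, read 5.34, 5.37 and 5.34 in AAV-PIK3CD, against 4.84, 5.40 and 5.64 in AAV-control. The AAV-PIK3CD arrays were alike and lay within the wide AAV-control range, with a difference of 0.06 (95% interval -0.35 to 0.46). Col16a1, found at fibrils and cell surfaces, read 7.57, 7.06 and 6.98 in AAV-PIK3CD, against 6.88, 6.92 and 6.92 in AAV-control. Array 51 stood above the rest and arrays 52 and 53 only just above AAV-control, so that the difference of 0.30 (SE 0.16, 95% interval -0.05 to 0.65) was 0.11 without array 51. Col9a1, a chain of the cartilage FACIT type IX, read 5.19, 5.16 and 5.14 in AAV-PIK3CD, against 5.68, 5.36 and 5.27 in AAV-control. All AAV-PIK3CD arrays were lower, and the difference was -0.27 (SE 0.13, 95% interval -0.57 to 0.02; adjusted p = 0.936, rank products), or -0.15 without array 48. Its partner chains Col9a2 and Col9a3 differed by -0.12 and 0.26 with overlapping groups, and by -0.18 and 0.17 without array 51. Col19a1, Col20a1 and Col22a1, the last a chain of the muscle-tendon junction, differed by 0.02, 0.22 and 0.26, also with overlap, and by -0.11, 0.05 and 0.25 without array 51. In all, 6 of the 8 FACIT chains had a higher mean, with a median difference of 0.14, and 5 with a median of 0.05 without array 51.

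The short-chain collagens VIII and X build hexagonal networks under vessel and corneal endothelium and in growth cartilage. Col8a1 read 4.03, 4.11 and 4.12 in AAV-PIK3CD, against 3.47, 3.84 and 3.62 in AAV-control. The AAV-PIK3CD arrays were close together above all AAV-control arrays, with array 51 the lowest of the 3. The difference was 0.44 (SE 0.13, 95% interval 0.16 to 0.73; adjusted p = 0.71, rank products), a 1.36-fold higher level, 0.47 without array 51 and between 0.36 and 0.54 with any other array left out, all at levels below the array median. Col8a2, the other type VIII chain, and Col10a1 differed by 0.18 and 0.17 with overlapping groups, and by 0.12 and 0.23 without array 51. Thus 3 of 3 network chains had a higher mean in AAV-PIK3CD.

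Transmembrane collagens cross the cell membrane and can be shed. Col23a1, made by epithelial cells, read 5.53, 5.54 and 5.51 in AAV-PIK3CD, against 5.21, 5.22 and 4.93 in AAV-control. The AAV-PIK3CD arrays differed by 0.03 at most, array 51 was not the highest, and array 50 was the lowest of the 6. The difference was 0.41 (SE 0.13, 95% interval 0.13 to 0.68; adjusted p = 0.787, rank products), a 1.33-fold higher level, and with each array left out it lay between 0.31 and 0.46. Its AAV-control mean lay above the array median. Col13a1, Col17a1 of the hemidesmosome and Col25a1, known from neurons, differed by 0.18, 0.01 and 0.11 with overlap, and by 0.03, 0.03 and 0.04 without array 51. Col26a1 and Col28a1, which fit none of these groups, differed by 0.09 and 0.20, and by -0.03 and 0.095 without array 51. Over the 23 collagens that are neither fibrillar nor of basement membranes, 19 had a higher mean, with a median difference of 0.17, and 15 with a median of 0.05 without array 51.

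**Figure D3:**
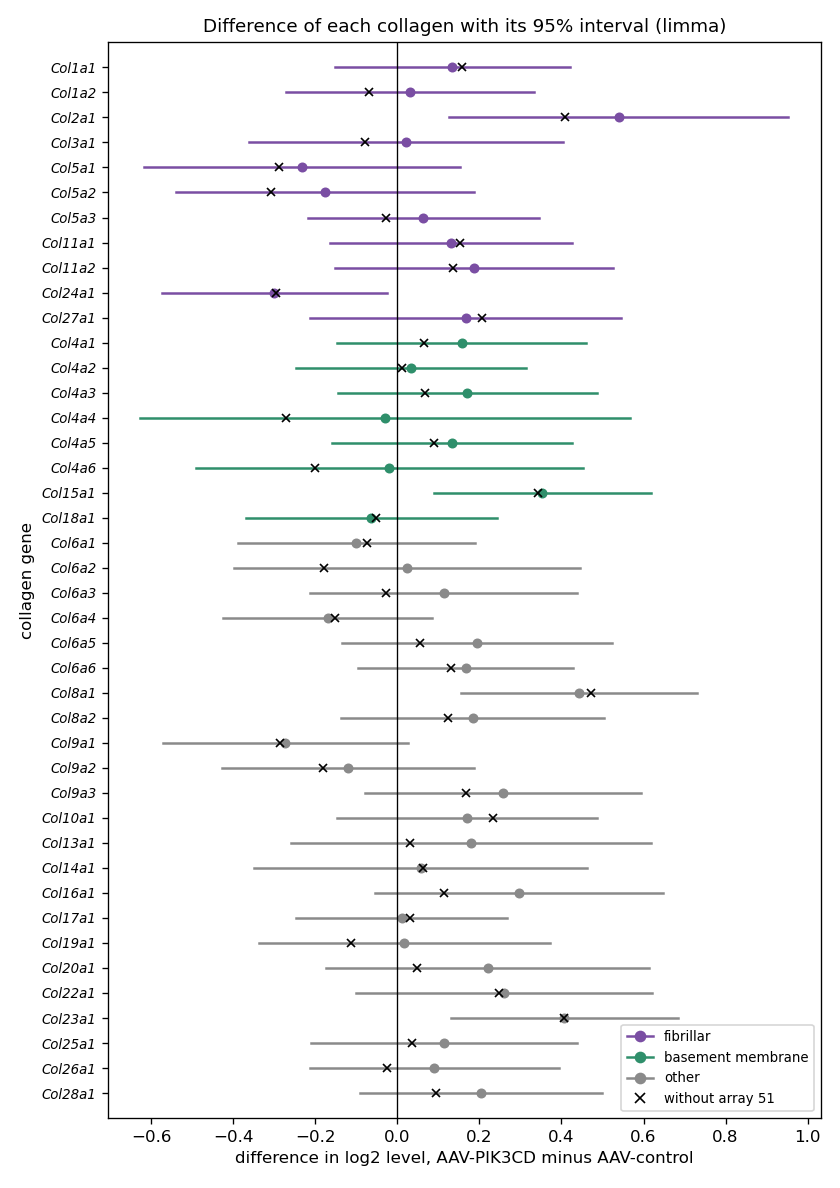
Difference in log2 level, AAV-PIK3CD minus AAV-control, of each collagen (dot, coloured by class) with its 95% limma interval, and the difference without array 51 (cross). Intervals of Col2a1, Col8a1, Col15a1, Col23a1 and Col24a1 leave out 0, and the crosses lie left of the dots for most chains.

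The 95% intervals show how large a difference these arrays leave possible. For Col1a1, Col1a2 and Col3a1 the upper bounds were 0.42, 0.33 and 0.40 on the log2 scale. Over the family the intervals reached -0.63 at the low end, for Col4a4, and 0.95 at the high end, for Col2a1. They are set for each chain by itself and are not corrected for the 42 chains.

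Whether partner chains varied together was asked over the 6 arrays for 11 pairs, 10 of chains of the same collagen type and 1, Col1a1 and Col3a1, of chains that share fibrils. Each r was also computed without the arrays farthest from the median of the pair's first gene. Leaving them out narrows the range of that gene, so a changed r does not show what a relation rests on. The partners of type I, Col1a1 and Col1a2, had a Pearson r of 0.11 and a Spearman rho of 0.20 (exact permutation p = 0.833 and p = 0.722), and r was -0.42 without arrays 48 and 49. For Col4a1 and Col4a2, r was 0.47 and rho 0.58 (exact permutation p = 0.389 and p = 0.233), and r was 0.55 without arrays 50 and 51. For Col9a1 and Col9a2, r was 0.60 and rho 0.77 (exact permutation p = 0.2 and p = 0.103), and r was -0.12 without arrays 48 and 49, both of AAV-control. The lowest Pearson p belonged to Col1a1 and Col3a1, at r = -0.71 and rho = -0.49 (exact permutation p = 0.133 and p = 0.344). No pair passed after adjustment over the 11 pairs, where every adjusted p was at least 0.84. With 3 arrays a group, r within a group was not computed.

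Collagens need a set of enzymes and chaperones to fold, leave the cell and be cross-linked, and a list of such genes was counted beside the chains. Of its 72 genes 66 were measured, and 0 were called by rank products or limma, with 3 at an unadjusted p under 0.05 by rank products and 2 by limma. These are shares of 4.55% and 3.03%, below the 5.7% and 5.08% of all probe sets. Means were higher in AAV-PIK3CD for 30 and lower for 33, with a median difference of -0.005, against -0.007 over all probe sets. Groups did not overlap in 0 genes above AAV-control and 1 below, or 1.52%, against 4.47% and 4.97% of all probe sets. The 1 gene was Loxl3, a lysyl oxidase that cross-links collagen. It read 4.59, 4.72 and 4.83 in AAV-PIK3CD, against 5.20, 4.84 and 4.89 in AAV-control, a difference of -0.26 (95% interval -0.57 to 0.04). The margin was small, 4.83 in array 53 against 4.84 in array 49.

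By role, the list followed no single direction. Among the 11 hydroxylation genes 5 had a higher mean, and P4hb, the beta subunit of prolyl 4-hydroxylase, read 10.72, 11.01 and 10.99 in AAV-PIK3CD, against 11.08, 11.09 and 10.97 in AAV-control. Among the 10 folding and export genes 3 were higher, and Serpinh1, the collagen chaperone HSP47, read 5.50, 6.12 and 6.04 in AAV-PIK3CD, against 6.18, 6.04 and 6.11 in AAV-control. For both genes array 51 was the lowest of the 6. Over the 66 handling genes array 51 held the highest value in 12, or 18.2%. The shares were 54.8% for collagens and 20.4% for all probe sets. Lox, the main cross-linking oxidase, read 3.07, 3.35 and 3.07 in AAV-PIK3CD, against 3.22, 3.01 and 3.02 in AAV-control. Timp1, an inhibitor of collagen proteases and a usual marker of fibrosis, read 3.10, 3.15 and 2.92 in AAV-PIK3CD, against 2.85, 3.02 and 3.33 in AAV-control. Both were near the bottom of the array range with overlapping groups. Mmp2, a gelatinase of stellate cells, read 5.91, 5.89 and 5.99 in AAV-PIK3CD, against 6.09, 5.76 and 5.77 in AAV-control, a difference of 0.06 (95% interval -0.23 to 0.35). Higher means were counted in 4 of 7 genes of propeptide removal, 3 of 6 of cross-linking, 3 of 8 fibril-binding proteins, 3 of 9 proteases, 3 of 6 inhibitors and 6 of 9 receptors.

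Markers of liver cell types were set beside the collagens. The summed level of 8 stellate cell markers was 9.34, 9.48 and 9.54 in AAV-PIK3CD, against 9.54, 9.41 and 9.42 in AAV-control, and array 51 was the lowest. That of 8 myofibroblast and portal fibroblast markers was 8.39, 8.30 and 8.21 in AAV-PIK3CD, against 8.29, 8.20 and 8.20 in AAV-control, and array 51 was the highest. A summed level follows its brightest members, and by the median deviation used for the collagens array 51 was at neither end. For the stellate cell list array 50 was lowest, at -0.12 against -0.009 in array 51. For the myofibroblast list array 48 was highest, at 0.07 against 0.06 in array 51. Of these lists 4 of 8 and 5 of 8 members had a higher mean in AAV-PIK3CD, with 0 called. All 4 mesothelium markers lay below the array median in AAV-control, where the summed level was 5.92 to 5.99, beside 5.87 to 6.0 in AAV-PIK3CD. The summed level of 6 sinusoidal endothelium markers was 9.64, 9.59 and 9.85 in AAV-PIK3CD, against 9.64, 9.71 and 9.88 in AAV-control, with 2 of 6 means higher. Among them only Lyve1, a receptor for hyaluronan, lay below AAV-control in every AAV-PIK3CD array. This is 16.7% of the list, against 4.97% of all probe sets. The Lyve1 difference was -0.35 (adjusted p = 0.84, rank products), while Stab2 of the same list was higher by 0.19 with overlapping groups. The summed level of 5 cholangiocyte markers was 7.01, 7.21 and 7.43 in AAV-PIK3CD, against 6.72, 7.14 and 7.63 in AAV-control, with 4 of 5 means higher. The bile duct adhesion molecule Epcam had the largest difference of these 5, 0.54, with overlapping groups (adjusted p = 0.438, rank products). The Epcam difference was 0.26 without array 53, and its AAV-control mean lay below the array median. The part of these cell types in the collagen levels was not tested.

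**Figure D4:**
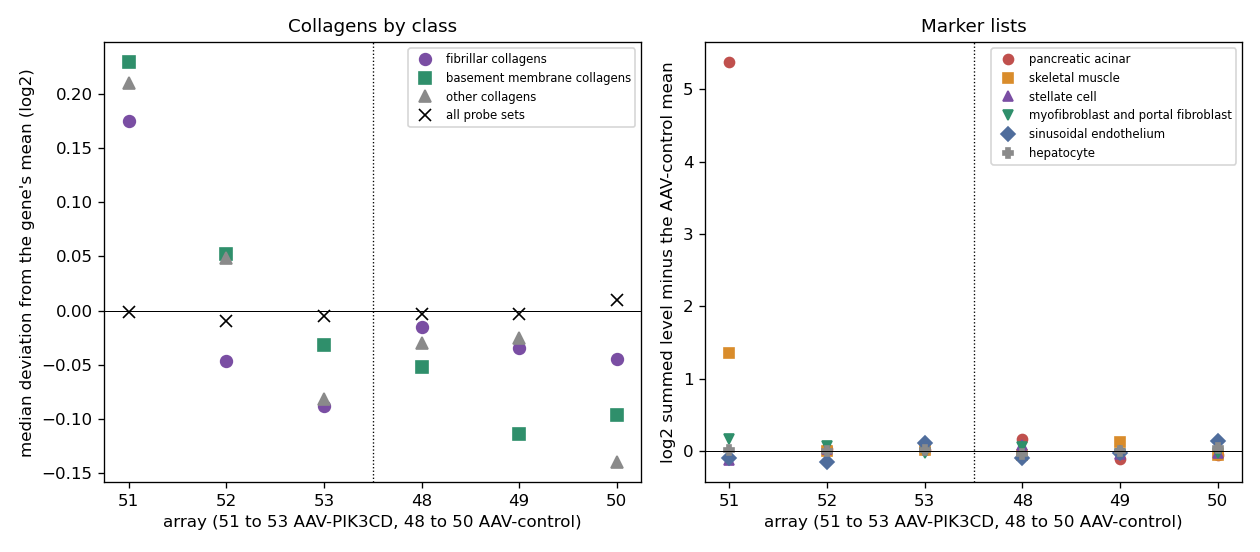
Left, median log2 deviation of the collagens of each class, and of all probe sets, from each gene's mean, by array; right, log2 summed level of marker lists minus the mean of the AAV-control arrays. AAV-PIK3CD arrays 51 to 53 stand left of AAV-control arrays 48 to 50; array 51 is highest for all 3 collagen classes and for the acinar and muscle lists.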

How the data were processed

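Total RNA, 100 ng per array, was hybridised to 6 Clariom S mouse arrays. The authors normalised them by RMA, and the deposited values are log2 levels with 2 decimals; software version and summary level are not given in the sources used here. Symbols came from GEO's platform annotation (19572 of 22206 probe sets with 1 symbol, 2634 with none). No probe set was filtered, and precision is limited by having 3 arrays in each group.

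Groups were compared by rank products, which the study's methods name. The settings were 9 array pairs, 1000 seeded shuffles of gene order within each array, 2-sided p and Benjamini-Hochberg over all probe sets at 0.05. The rank products p sets a gene's ranks against those of other genes. Even with separate mice it does not measure the spread between mice. Limma 3.58.1 (R 4.3.3) gave standard errors and intervals, and Python 3.11.15 the rest. Both tests were tested on simulated data. There rank products called more unchanged probe sets than limma, and both missed most changes of the smallest size tried. Alternatives were limma, the methods' t-test, 3 normalizations on top of RMA (quantile, cyclic loess and centring on the median), tests without the 25% or 50% of probe sets that were dimmest, and each array left out.

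Members, classes and lists were chosen with earlier results of these data known. The named collagens were the main liver chains, those with non-overlapping groups, and the 4 with the smallest rank products p per direction. Of the list of collagen handling genes, those called or not overlapping were named, with 5 set by name. Promoter windows came from RefSeq, GRCm38.p6.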

Additional observations from a re-analysis of the deposited data

How the results depend on the processing

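Collagens called stayed at 0 in either direction by limma, the methods' t-test, every normalization, both filters on dim probe sets and each array left out. A count of 0 does not show that the chains did not differ, and differences of the size seen here are hard to call with 3 arrays a group. At an unadjusted p under 0.05 the t-test gave 5 of 42 collagens and 1059 of all 22206 probe sets. By limma 0 probe sets were called higher and 0 lower over the whole array, against 1 and 8 by rank products. Without single arrays the median difference ranged from 0.04 to 0.14 for all collagens, from -0.03 to 0.10 for fibrillar, from 0.04 to 0.17 for basement membrane and from 0.047 to 0.22 for other collagens, the lowest for other collagens without array 51. Collagens with a higher mean numbered 25 to 34. Those with non-overlapping groups numbered 5 to 13 higher and 3 to 5 lower, where fewer arrays make overlap rarer. The 13 higher (31%) came without array 53, where 10.4% of all probe sets were higher, and the 5 higher (11.9%) without array 51, where 8.25% were. The 5 lower came without array 48, with 11% of all probe sets lower. These counts under other settings were added after seeing the data. Filters on dim probe sets left 38 and 25 collagens, 29 and 20 with a higher mean. These are 76.3% and 80.0%, against 45.8% and 40.0% of all probe sets left.

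Signs turned for 8 named chains. After median centring the differences were -0.0033 for Col1a2, -0.013 for Col3a1 and -0.01 for Col6a2, which was -0.0061 with quantile normalization and -0.015 with cyclic loess. With each array left out they ranged from -0.068 to 0.093 (Col1a2), -0.17 to 0.12 (Col3a1), -0.028 to 0.12 (Col4a2), -0.27 to 0.31 (Col4a4), -0.18 to 0.25 (Col6a2), -0.028 to 0.23 (Col6a3), -0.17 to 0.23 (Col14a1) and -0.20 to 0.018 (Col18a1). The cause was not tested. Averaging probe sets of 1 symbol changes nothing, since each collagen has 1. No paired analysis was possible because the array numbers are not shared between groups.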

Other observations

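Arrays 50 and 53, 1 of each group, shared low collagen values, a pattern chosen after the values were seen. In 9 of 42 collagens, or 21.4%, both lay below the other 4 arrays, while this held for 7.4% of all probe sets. The opposite, both above the other 4, held for 1 collagen, or 2.38%, and for 8.86% of all probe sets. The 9 genes were Col3a1, Col4a6, Col5a3, Col6a3, Col8a2, Col9a2, Col11a2, Col13a1 and Col20a1.

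In all, 3 handling genes had an unadjusted rank products p under 0.05, or 4.55%, against 5.7% of all probe sets. P3h2, a prolyl 3-hydroxylase, differed by 0.40, Fkbp14, a folding enzyme of the endoplasmic reticulum, by -0.45, and Ctsk, the collagen-cutting cathepsin K, by -0.40 (adjusted p = 0.784, 0.640 and 0.747, rank products). They were named after their values were seen.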
